A study of Homo sapiens with 6 samples.

Results

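CYP24A1 (ENSG00000019186) encodes the mitochondrial 24-hydroxylase of vitamin D, and is 1 of 6641 genes and 1 of 19 protein-coding CYP genes in the table of 6 libraries. It was chosen by its large difference in FPKM between the 2 cell lines, so its own levels are given as a description, with no test. The annotation GENCODE 29 places it on the minus strand of GRCh38 chromosome 20, from 54153449 to 54173973, with 6 transcripts, of which the longest has 12 exons and 3262 bases. The deposited table itself holds no coordinates.

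RNA sequencing was carried out on HCC827_Er cells and HCC827 cells, with 3 libraries per line. HCC827 is an established human lung adenocarcinoma line with an activating EGFR mutation, and HCC827_Er is its resistant counterpart, as read from the title of the series, which asks about resistance to EGFR tyrosine kinase inhibitors. The labels give no culture medium, drug dose or clonal origin, and do not tell separate cultures from repeat libraries, so the p-values cover the spread between libraries only, which may be technical. Values were FPKM, fragments scaled to transcript length and to each library's mapped fragments, and without counts the depth of the libraries is not known.

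Active vitamin D, calcitriol, is made in 2 hydroxylation steps, of which the last is carried out by CYP27B1, and acts through the nuclear receptor VDR, which binds DNA with a retinoid X receptor. CYP24A1 hydroxylates calcitriol and its precursor on the side chain and so begins their breakdown. In most tissues CYP24A1 is itself among the most strongly induced target genes of VDR, which closes a negative feedback loop. Both CYP24A1 and CYP27B1 sit in the inner mitochondrial membrane and receive electrons from ferredoxin and ferredoxin reductase, while most other CYP enzymes sit in the endoplasmic reticulum.

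CYP24A1 stood at 81.4, 89.5 and 85.7 FPKM in the HCC827_Er libraries, against 1.76, 1.41 and 1.45 FPKM in the HCC827 libraries. All HCC827_Er libraries lay above all HCC827 libraries, as they did, in one direction or the other, for 96.1% of the listed genes. The means were 85.6 ± 4.05 FPKM in HCC827_Er and 1.54 ± 0.192 FPKM in HCC827 (SD, n = 3 each), a ratio of 55.6, and the difference was 5.09 on the log2(FPKM + 1) scale, which understates changes of low genes. This was the 13th largest positive difference among the 5276 genes that reached 1 FPKM in at least 3 libraries, just below S100A7 at 5.19 and just above the surfactant gene SFTPB at 5.09. In bulk RNA, more cells that express a gene and more of its RNA per cell cannot be told apart.

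Libraries of one line differed little in CYP24A1. The coefficient of variation was 4.73% in HCC827_Er, where the median of the 593 genes within 2-fold of its level was 5.96%, and 12.4% in HCC827, where the median of 1304 such genes was 18.7%. By level it ranked between 320 and 355 of the 6641 genes in the HCC827_Er libraries, and between 4155 and 4329 in the HCC827 libraries. It was thus among the abundant listed genes of HCC827_Er and in the lower part of the list in HCC827.

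Among the 19 listed CYP genes CYP24A1 ranked first in every HCC827_Er library, and 9th or 10th in the HCC827 libraries. It held 54.9%, 58.2% and 56.6% of the summed FPKM of these genes in HCC827_Er, against 2.00%, 1.69% and 1.66% in HCC827. The next CYP gene in HCC827_Er was CYP1A1, at 16.2, 14.5 and 13.9 FPKM, so CYP24A1 stood 5.02 to 6.16 times above it. In HCC827 the values of CYP24A1 overlapped those of CYP1A1, at 1.78, 1.82 and 1.45 FPKM and those of CYP26B1, at 1.60, 2.44 and 1.82 FPKM. The other 18 CYP genes summed to between 64.3 and 66.8 FPKM in HCC827_Er and between 82.1 and 86.4 FPKM in HCC827, so the higher total of the family in HCC827_Er came with CYP24A1 and not with the others together.

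**Figure D1:**
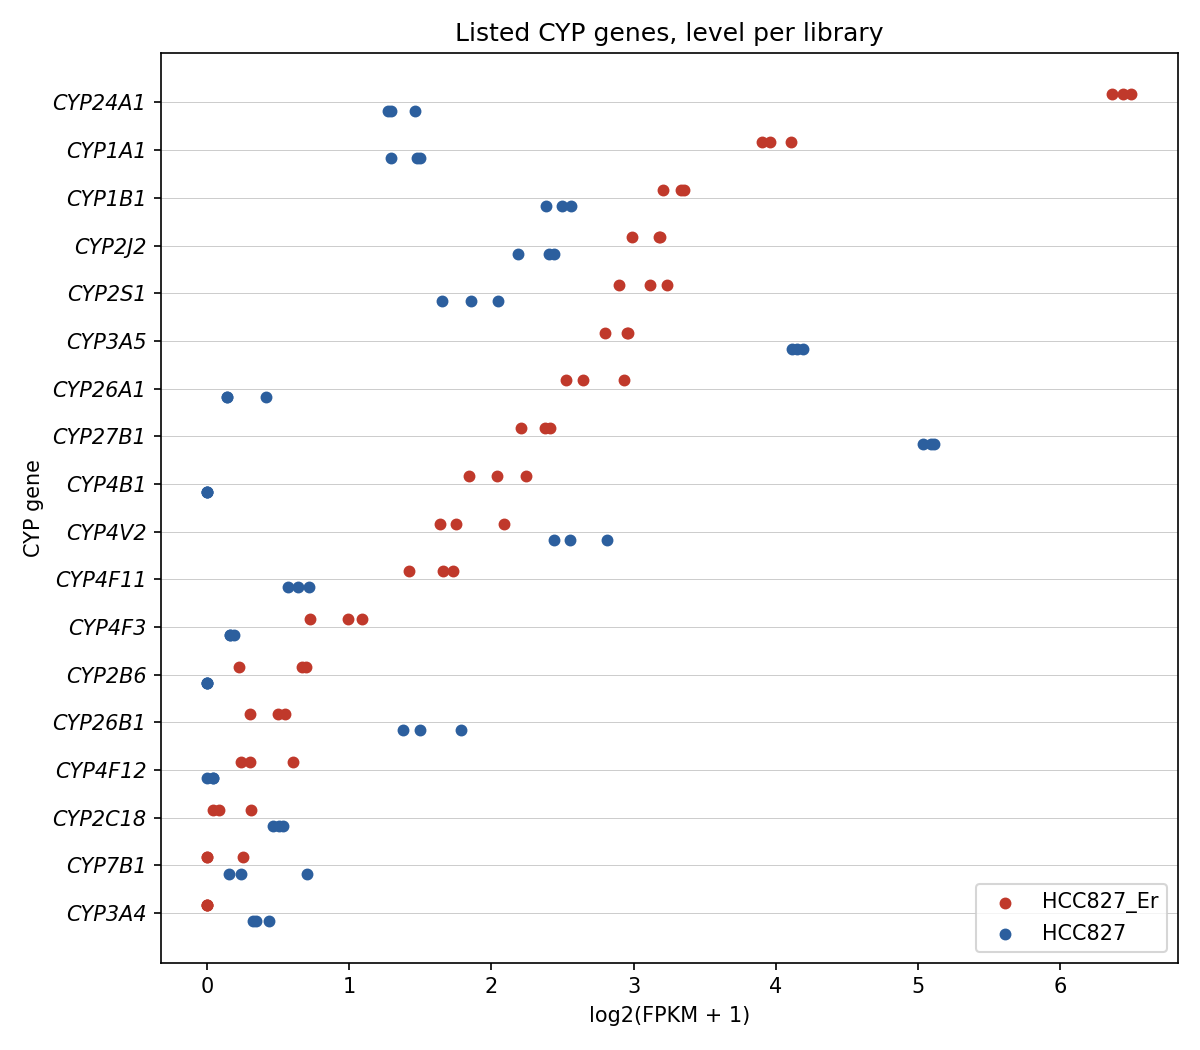
Levels of 18 of the 19 listed CYP genes on the log2(FPKM + 1) scale, with 1 point per library, HCC827_Er in red above HCC827 in blue, and genes ordered by their HCC827_Er mean. CYP24A1 lies farthest to the right in HCC827_Er, between 81.4 and 89.5 FPKM, while CYP27B1 is the highest CYP gene in HCC827.

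The enzyme that makes calcitriol showed the opposite order. CYP27B1, the 1-alpha-hydroxylase, stood at 4.20, 4.33 and 3.61 FPKM in HCC827_Er, against 33.1, 31.8 and 33.6 FPKM in HCC827, where it was the most abundant of the listed CYP genes. It fell by 2.75 on the log2 scale (SE 0.090, limma adjusted p = 1.70e-08). The ratio of CYP24A1 to CYP27B1 FPKM ranged from 19.4 to 23.7 in the HCC827_Er libraries and from 0.0432 to 0.0532 in the HCC827 libraries. The other activating enzyme in the table, CYP3A4, which can hydroxylate vitamin D among many other substrates, was listed at 0 in HCC827_Er and at 0.25 to 0.35 FPKM in HCC827, too low to be tested. CYP2R1, CYP27A1 and DHCR7 were not analysed here.

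The receptor gene VDR stood at 14.6, 12.1 and 12.1 FPKM in HCC827_Er, against 2.62, 1.80 and 2.34 FPKM in HCC827. It rose by 2.10 on the log2 scale (SE 0.13, limma adjusted p = 8.51e-07), with no overlap between the lines. CYP24A1 exceeded VDR 5.59 to 7.37 times in the HCC827_Er libraries, while in the HCC827 libraries the ratio of CYP24A1 to VDR was 0.620 to 0.783. Of the partners and coregulators, 1 gene was in the table, the coactivator NCOA3, at 21.0 ± 1.61 FPKM in HCC827_Er and 10.3 ± 0.962 FPKM in HCC827. Its log2 difference of 0.96 (limma adjusted p = 1.67e-05) lay under the 2-fold minimum, and passed it without HCC827_Er replicate 1 (1.02), without HCC827 replicate 3 (1.00), with a pseudocount of 0.1 (1.02) and with rescaling to equal library sums (1.19). The retinoid X receptor genes were not analysed here.

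**Figure D2:**
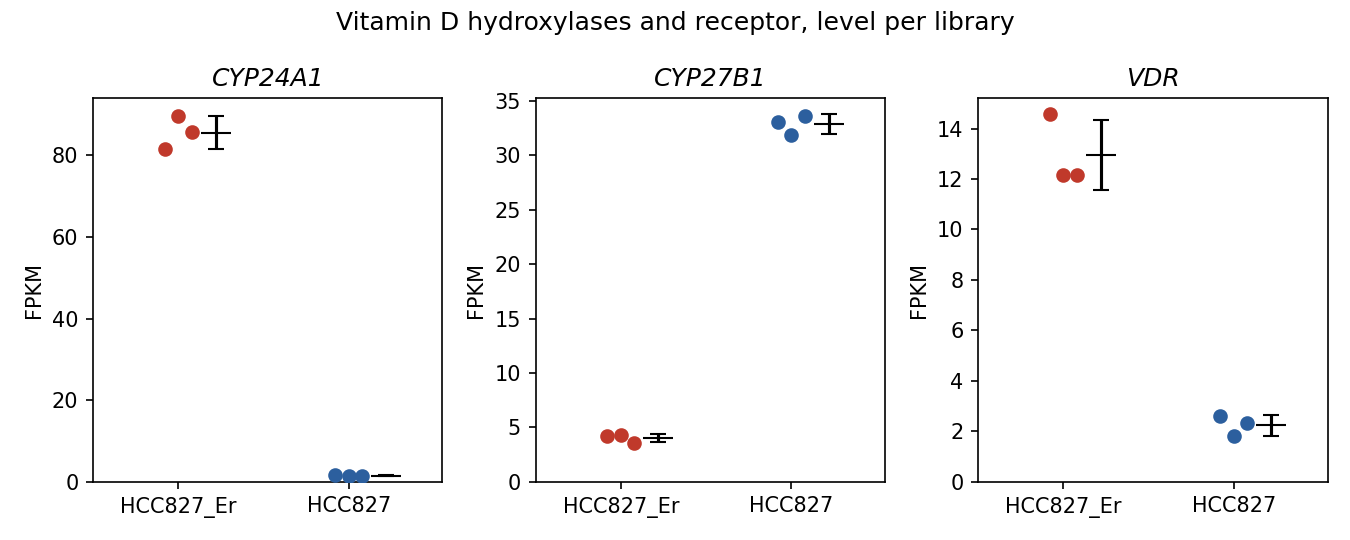
FPKM of CYP24A1, CYP27B1 and VDR, with 1 point per library, HCC827_Er in red left of HCC827 in blue, and black marks for the mean and SD of the 3 libraries. CYP24A1 and VDR are higher in all HCC827_Er libraries, and CYP27B1 is higher in all HCC827 libraries, at 31.8 to 33.6 FPKM.

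Of the genes that take up vitamin D bound to its carrier protein, 4 were in the table and 2 were tested. Of these, 1 was called lower, beside 19.7% of all tested genes. DAB2, an endocytic adaptor of the receptors megalin and cubilin, stood at 0.42, 0.13 and 0.37 FPKM in HCC827_Er, against 20.7, 20.7 and 21.1 FPKM in HCC827, and was called lower, with a log2 difference of -4.07. It passed the 1 FPKM minimum through HCC827 alone, so it was bound to differ. AMN, the membrane anchor of cubilin, stood at 4.11 ± 0.675 FPKM in HCC827_Er and 8.12 ± 0.725 FPKM in HCC827. Its log2 difference of -0.84 was not called as deposited, and was called with median-ratio rescaling of the libraries (-1.13). LRP2, which encodes megalin, and GC, the vitamin D carrier of plasma, were under 1 FPKM in all libraries and were not tested.

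The list of 33 other textbook targets of VDR holds VDR itself, given above, and was chosen with earlier results of these data known. Of the 33, 19 were in the table and 16 were tested. Of these, 11 were called higher in HCC827_Er and 2 lower, which required a limma adjusted p under 0.05 together with a 2-fold difference. Among all 5276 tested genes 24.7% were called higher and 19.7% lower, and 5187 passed the adjusted p alone, so that threshold sets no gene apart. The median log2 difference of the 16 targets was 1.36, and that of all tested genes was 0.43. Of the 16, KLK6, SLC34A2 and CD14 were below 1 FPKM in all libraries of 1 line and passed the minimum through the other line alone, so they were bound to differ. The same held for 930 of the 5276 tested genes. The targets answer to many other signals as well, and the list is no measure of VDR activity.

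IGFBP3, a secreted binding protein of insulin-like growth factors, had the largest positive log2 difference among the targets. It stood at 952, 981 and 1019 FPKM in HCC827_Er, against 40.9, 39.3 and 37.0 FPKM in HCC827 (log2 difference 4.62, SE 0.054, limma adjusted p = 1.61e-10). KLK6, a secreted serine protease, stood at 18.95, 20.9 and 17.5 FPKM in HCC827_Er, against 0.09, 0.04 and 0 FPKM in HCC827. SLC34A2, the sodium-phosphate cotransporter of alveolar cells, stood at 6.33 ± 0.175 FPKM in HCC827_Er and 0.350 ± 0.0781 FPKM in HCC827, and rose by 2.44 on the log2 scale. TXNIP, a binding protein of thioredoxin first described as a gene induced by vitamin D, stood at 75.3 ± 2.02 FPKM in HCC827_Er and 16.6 ± 0.477 FPKM in HCC827. KLK6 and SLC34A2 were below 1 FPKM in all HCC827 libraries and passed the minimum through HCC827_Er alone.

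The other targets called higher were VDR itself, CLMN, THBD, CDH1, HILPDA, CD14 and CDKN1A, with log2 differences between 1.05 and 2.10. THBD, which encodes the anticoagulant receptor thrombomodulin, stood at 4.73 ± 0.293 FPKM in HCC827_Er and 1.11 ± 0.0814 FPKM in HCC827. CDKN1A, a cyclin-dependent kinase inhibitor, stood at 18.5 ± 0.917 FPKM in HCC827_Er and 8.41 ± 0.639 FPKM in HCC827, and with median-ratio rescaling it was not called (0.73), nor was HILPDA (0.99). CD14, a lipopolysaccharide coreceptor, stood at 1.73 ± 0.176 FPKM in HCC827_Er and 0.207 ± 0.147 FPKM in HCC827. With a pseudocount of 5 in place of 1, CD14, THBD and CDKN1A were not called. CD14 is also a leukocyte marker: the 4 of 9 leukocyte markers in the table, CD14, CSF1R, LAPTM5 and CORO1A, summed to between 16.9 and 22.7 FPKM in HCC827_Er and between 1.81 and 2.47 FPKM in HCC827. All 4 were below 1 FPKM in every HCC827 library and passed the minimum through HCC827_Er alone, so they were bound to differ. None of the 4 was at 0 in any library, PTPRC and the lymphocyte markers were not analysed here, and their part in the result was not tested.

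Both targets called lower were abundant in HCC827. SPP1, which encodes osteopontin, stood at 42.3, 43.4 and 46.9 FPKM in HCC827_Er, against 4022, 4259 and 4153 FPKM in HCC827 (log2 difference -6.52, SE 0.052, limma adjusted p = 2.34e-11). CALB1, the calcium-binding protein calbindin, stood at 21.6, 24.2 and 23.5 FPKM in HCC827_Er, against 175, 186 and 191 FPKM in HCC827, and fell by 2.94 on the log2 scale. The targets not called were TNFAIP3 (log2 difference 0.74), INSIG2 (0.66) and GADD45A (-0.89), the last called lower with median-ratio rescaling (-1.23). CAMP, the antimicrobial peptide gene that VDR induces in human cells, stood at 0.91, 0.77 and 2.32 FPKM in HCC827_Er, against 0.46, 0.42 and 0 FPKM in HCC827, and was too low to be tested, as was SLC34A1.

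**Figure D3:**
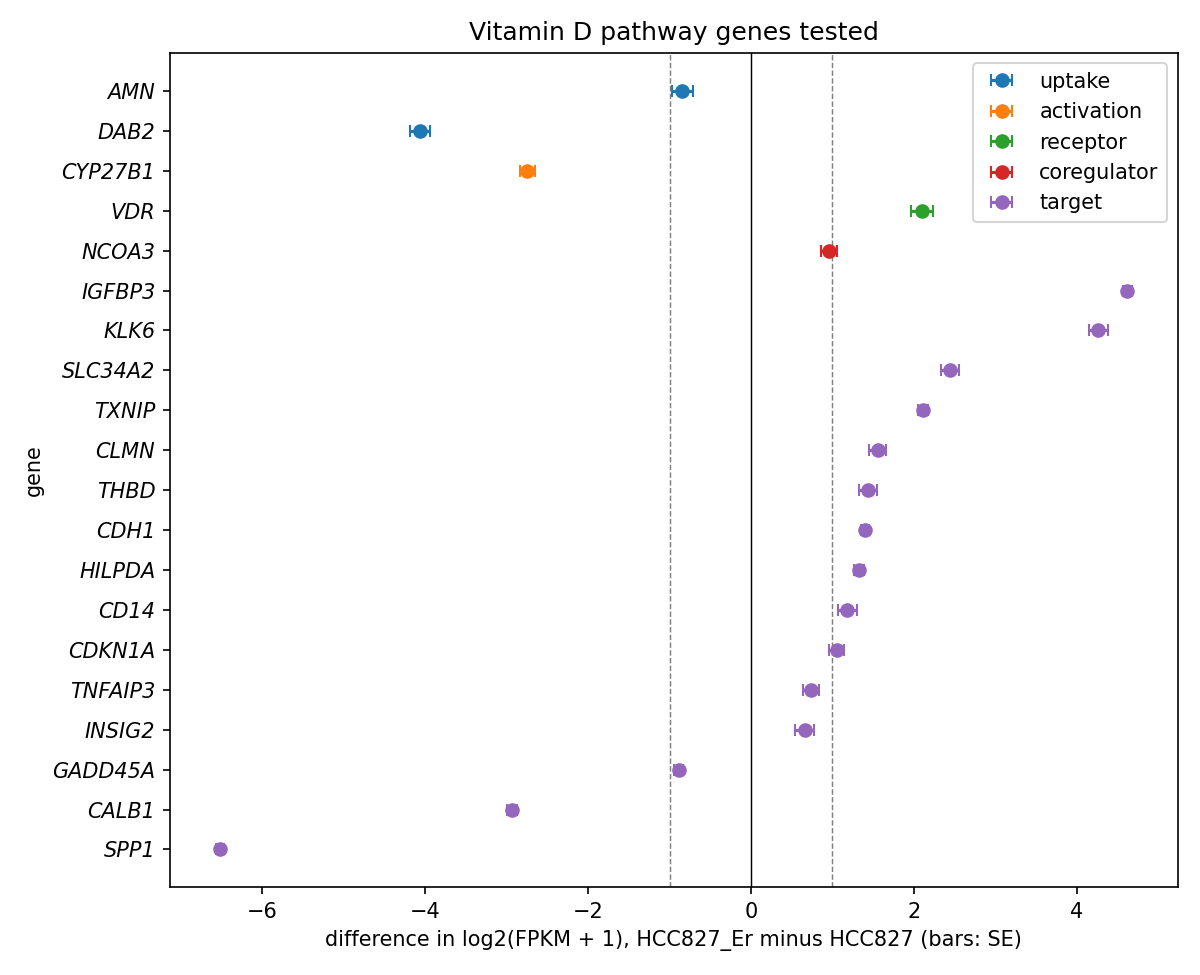
Difference in log2(FPKM + 1), HCC827_Er minus HCC827, for the 20 tested vitamin D genes other than CYP24A1, coloured by role, with SE bars and dashed lines at a 2-fold difference. Most targets lie right of 0, from INSIG2 at 0.66 to IGFBP3 at 4.62, while CYP27B1, DAB2, CALB1 and SPP1 lie to the left beyond 2-fold.

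Of 16 genes of calcium and phosphate handling, 7 were in the table and tested, and 1 was called higher and 2 lower, beside 24.7% and 19.7% of all tested genes. Of the 7, 3 were below 1 FPKM in all libraries of 1 line, CALB2 and CLDN16 among them, and were bound to differ. The same held for 930 of all 5276 tested genes. The gene called higher was CALB2, which encodes calretinin, at 1.52 ± 0.279 FPKM in HCC827_Er and 0.0700 ± 0.121 FPKM in HCC827, not called with a pseudocount of 5 (0.36). CLDN2, a claudin that forms cation pores in tight junctions, stood at 1.14, 0.67 and 0.85 FPKM in HCC827_Er, against 187, 184 and 191 FPKM in HCC827, and fell by 6.65 on the log2 scale (limma adjusted p = 4.73e-10). CLDN16, a claudin of renal magnesium and calcium reabsorption, stood at 0.103 ± 0.0850 FPKM in HCC827_Er and 1.89 ± 0.121 FPKM in HCC827. PTHLH, the parathyroid hormone-like hormone, stood at 4.11 ± 0.0757 FPKM in HCC827_Er and 1.97 ± 0.0306 FPKM in HCC827, a log2 difference of 0.78 under the 2-fold minimum, and was called with a pseudocount of 0.1 (1.02). The stanniocalcin genes STC1 and STC2 also stayed under it as deposited, at 0.87 and 0.81, and passed it with rescaling to equal library sums (1.10 and 1.05).

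The electron donors of CYP enzymes were represented by 3 genes, of which 1 was called lower and none higher in the limma fit, beside 19.7% called lower and 24.7% called higher among all tested genes. FDXR, the ferredoxin reductase that serves mitochondrial CYP enzymes, stood at 9.95, 10.3 and 9.76 FPKM in HCC827_Er, against 5.54, 4.41 and 5.60 FPKM in HCC827. Its log2 difference of 0.84 (limma adjusted p = 8.66e-05) lay under the 2-fold minimum as deposited and above it with rescaling to equal library sums (1.05). Of the microsomal partners, CYB5R3, the cytochrome b5 reductase, stood at 74.0 ± 7.77 FPKM in HCC827_Er and 188 ± 7.95 FPKM in HCC827 and fell by 1.34 on the log2 scale, and PGRMC1 stood at 78.2 ± 3.61 FPKM in HCC827_Er and 48.7 ± 2.25 FPKM in HCC827, not called. The ferredoxin genes and POR were not analysed here.

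Of the other 18 CYP genes, 12 were tested, and 4 were called higher and 4 lower, against 24.7% and 19.7% of all tested genes. Of the 12, 5 were below 1 FPKM in all libraries of 1 line and were bound to differ, CYP26A1, CYP26B1, CYP4B1 and CYP4F11 among them. The same held for 930 of all 5276 tested genes. CYP1A1, a target of the aryl hydrocarbon receptor, stood at 14.9 ± 1.19 FPKM in HCC827_Er and 1.68 ± 0.203 FPKM in HCC827, and rose by 2.57 on the log2 scale (SE 0.11, limma adjusted p = 9.31e-08). CYP1B1, of the same enzyme family, stood at 8.86 ± 0.551 FPKM in HCC827_Er and 4.58 ± 0.335 FPKM in HCC827, and its log2 difference of 0.82 was called only with rescaling to equal library sums (1.03) among the alternatives tried. CYP2S1 rose by 1.23 on the log2 scale, with 7.50 ± 0.994 FPKM in HCC827_Er and 2.63 ± 0.495 FPKM in HCC827, and was not called with median-ratio rescaling (0.95).

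The retinoic acid hydroxylases, which inactivate their ligand as CYP24A1 does, moved in opposite directions. CYP26A1 stood at 5.25, 4.75 and 6.63 FPKM in HCC827_Er, against 0.33, 0.10 and 0.10 FPKM in HCC827, and rose by 2.47 on the log2 scale (SE 0.14, limma adjusted p = 4.85e-07). CYP26B1 stood at 0.46, 0.41 and 0.23 FPKM in HCC827_Er, against 1.60, 2.44 and 1.82 FPKM in HCC827, and fell by 1.11 (limma adjusted p = 5.13e-05). Each of these genes was below 1 FPKM in all libraries of 1 line and passed the minimum through the other line alone. A difference was thus bound to appear, and the p-values add nothing to it. The call of CYP26B1 was lost without HCC827 replicate 2 and with rescaling to equal library sums (both -0.99).

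The drug-metabolising enzyme CYP3A5 was lower in HCC827_Er, at 6.49 ± 0.474 FPKM in HCC827_Er and 16.8 ± 0.492 FPKM in HCC827. It fell by 1.25 on the log2 scale, and was under the 2-fold minimum with a pseudocount of 5 (-0.92). CYP4B1, a fatty acid and xenobiotic hydroxylase of lung, stood at 2.59, 3.10 and 3.74 FPKM in HCC827_Er and was listed at 0 in all HCC827 libraries, so no fold is given. CYP2J2, CYP4V2 and CYP4F11 were tested and not called, with log2 differences of 0.77, -0.77 and 0.96. CYP4F11 was called without HCC827_Er replicate 1 (1.05), with a pseudocount of 0.1 (1.70) and with rescaling to equal library sums (1.09), and CYP4V2 with median-ratio rescaling (-1.03). CYP4F3, CYP2B6, CYP4F12, CYP2C18, CYP7B1 and CYP3A4 were too low to be tested. Members of the CYP2B, CYP2C, CYP3A and CYP4F subfamilies are similar in sequence, so some of their reads may have been given to the wrong member.

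The 10 listed genes nearest to CYP24A1 on chromosome 20, 5 on each side, differed between the lines by at most 2.13 on the log2 scale. Of its 10 nearest protein-coding neighbours in GENCODE 29, 5 on each side, 2 were in the table. BCAS1, 103 kb away, stood at 0.413 ± 0.0351 FPKM in HCC827_Er and 0.0300 ± 0.0265 FPKM in HCC827 and was too low to be tested, and FAM210B, 2185 kb away, stood at 10.04 ± 0.552 FPKM in HCC827_Er and 5.74 ± 0.155 FPKM in HCC827, a log2 difference of 0.71 that was not called. Of the 10 listed genes, 8 were tested, and 3 were called higher and none lower in the limma fit, beside 24.7% and 19.7% of all tested genes. Each of the 8 passed the adjusted p alone, like 5187 of the 5276 tested genes, and 2 of the 8 had a negative difference. NKILA and LINC01271 were below 1 FPKM in all libraries of 1 line, like 930 of the 5276 tested genes. The 3 lay on the side away from BCAS1: TFAP2C, a transcription factor of the AP-2 family, at 9.71 ± 0.584 FPKM in HCC827_Er and 1.45 ± 0.0643 FPKM in HCC827, PMEPA1, an inhibitor of TGF-beta signalling, at 22.6 ± 2.96 FPKM in HCC827_Er and 4.59 ± 0.860 FPKM in HCC827, and NKILA, a noncoding RNA beside PMEPA1 on the other strand. Strand use in the counting is not given, so reads of NKILA and PMEPA1 cannot be told apart where they overlap. ATP9A, NFATC2, LINC01270 and LINC01271 were tested and not called, with log2 differences between -0.65 and 0.88 as deposited, and APCDD1L was too low to be tested.

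**Figure D4:**
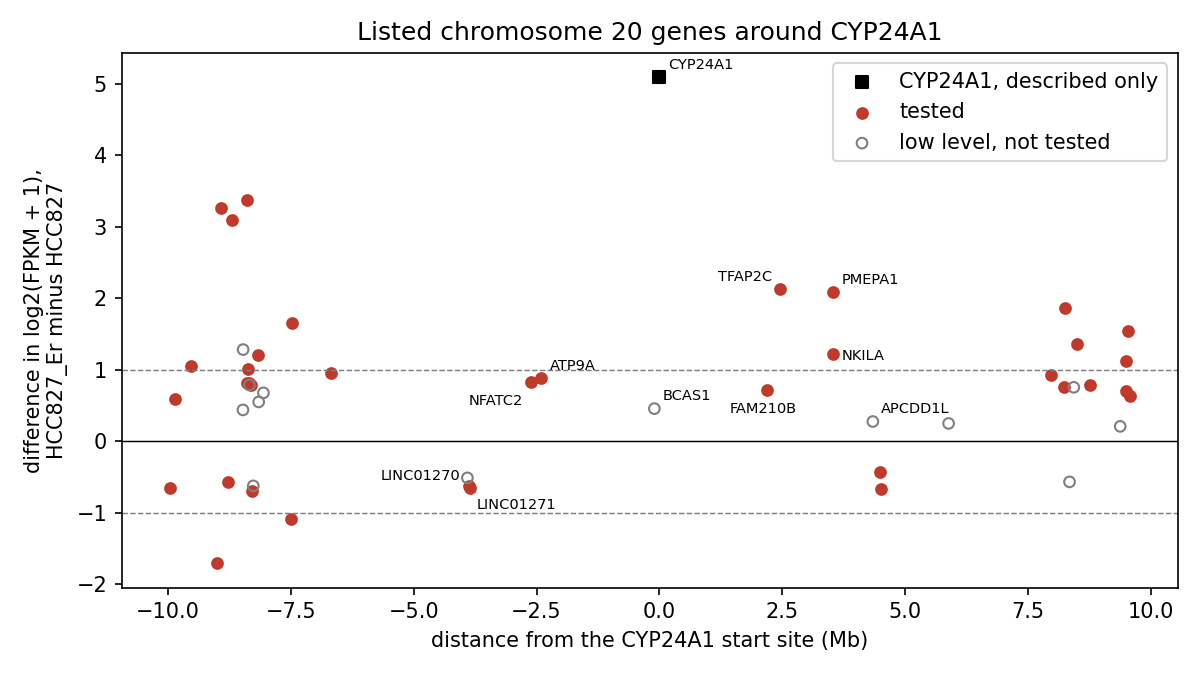
Difference in log2(FPKM + 1), HCC827_Er minus HCC827, of listed chromosome 20 genes against the distance of their start from that of CYP24A1 in Mb, with dashed lines at a 2-fold difference and open points for genes too low to be tested. CYP24A1 stands at 5.09, and the labelled neighbours, 5 on each side, lie between -0.65 and 2.13.

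The genes most like CYP24A1 in level and difference together were sought by the Euclidean distance between log2(FPKM + 1) values over the 6 libraries. S100A7, psoriasin of squamous epithelia, lay nearest at a distance of 0.253, with 88.6, 94.1 and 85.9 FPKM in HCC827_Er, against 1.80, 1.11 and 1.60 FPKM in HCC827. S100P, another calcium-binding protein of the S100 family, followed at 0.594, with 95.9 ± 1.99 FPKM in HCC827_Er and 2.10 ± 0.473 FPKM in HCC827. The next were EGLN3, a prolyl hydroxylase of the hypoxia response, the adhesion receptor ADGRF1, the interferon-induced IFI27, the splicing regulator ESRP1, the proline dehydrogenase PRODH and the myoglobin gene MB, at distances of 0.917 to 1.73. None of the 8 lies on chromosome 20. Pearson's r picked none of these 8 among its own first 8 and 835 of the 6640 other genes had an r above 0.99; the 6 points fall into 2 lines, so r says little here.

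**Figure D5:**
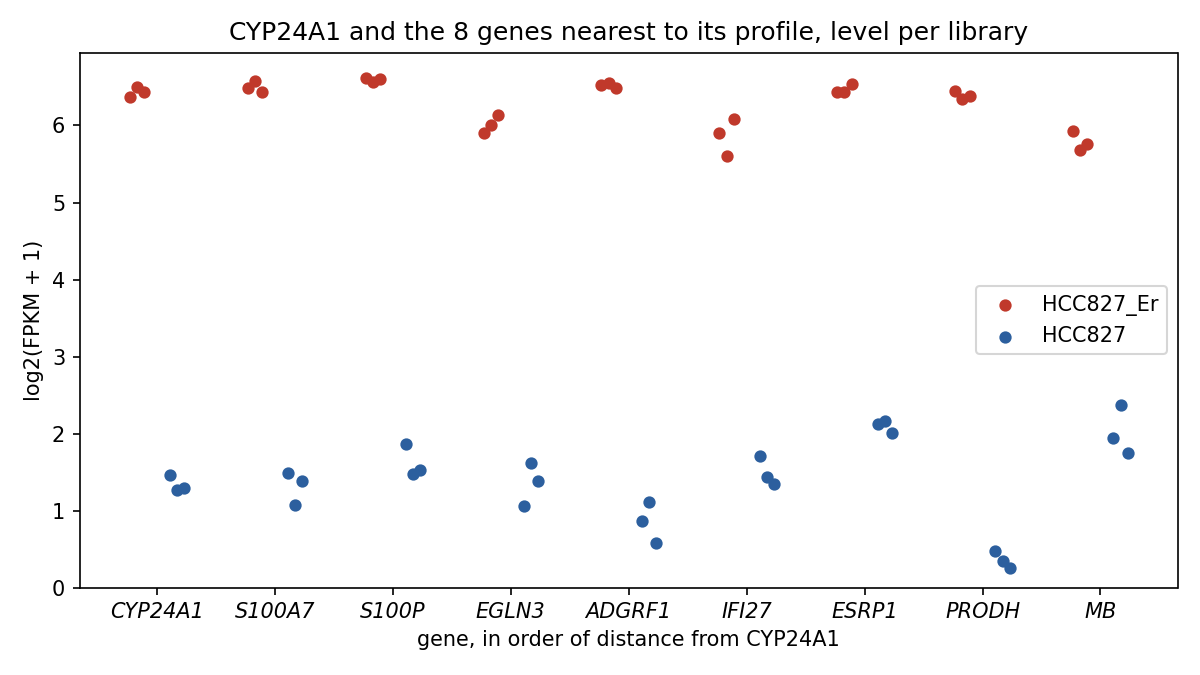
Levels of CYP24A1 and the 8 genes nearest to it on the log2(FPKM + 1) scale, with 1 point per library, HCC827_Er in red left of HCC827 in blue, in order of distance. S100A7 at 0.253 is the nearest, and MB at 1.73 the farthest of those shown.

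Of 10 lung adenocarcinoma markers, 8 were in the table, and 7 of them were called higher in HCC827_Er, beside 24.7% of all tested genes. The marker not called, KRT8, was lower in HCC827_Er, at 1025 ± 31.7 FPKM against 1744 ± 45.9 FPKM in HCC827 (log2 difference -0.77). The 8 summed to 3191 to 3346 FPKM in HCC827_Er and 2200 to 2293 FPKM in HCC827, for the most part KRT8 and KRT19. Of the lung markers among them, NKX2-1 stood at 65.7 ± 4.65 FPKM in HCC827_Er and 5.93 ± 0.898 FPKM in HCC827. NAPSA stood at 257 ± 8.23 FPKM in HCC827_Er and 28.0 ± 0.711 FPKM in HCC827, and SFTA2 at 350 ± 38.3 and 3.53 ± 2.04 FPKM. SFTPB stood at 35.0, 44.7 and 39.0 FPKM in HCC827_Er, against 0.05, 0 and 0.59 FPKM in HCC827. SFTPB thus passed the 1 FPKM minimum through HCC827_Er alone, so it was bound to differ. Of the other cell types, 3 of 7 fibroblast markers in the table summed to 9.33 to 11.5 FPKM in HCC827_Er and 2.46 to 3.35 FPKM in HCC827. COL1A1 was called higher in HCC827_Er, at 10.1 ± 0.932 FPKM against 0.750 ± 0.243 FPKM in HCC827. The others were lower in HCC827_Er. COL3A1 was at 0 there, and LUM stood at 0.530 ± 0.372 FPKM against 1.81 ± 0.661 FPKM in HCC827, not called. The 2 of 6 endothelial markers summed to 6.83 to 7.78 FPKM in HCC827_Er and 8.48 to 9.57 FPKM in HCC827, with CDH5 at 0 in HCC827. EGFL7 stood at 6.61 ± 0.386 FPKM in HCC827_Er and 9.07 ± 0.551 FPKM in HCC827, and was not called. The part of these marker genes in the levels of CYP24A1 was not tested.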

How the data were processed

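The authors deposited 1 table of FPKM per gene for 6 libraries, with Ensembl identifiers and 2 decimals. The submitters' processing notes name fastp, HISAT2 and StringTie, and GRCh38.p14 and hg19 without roles. How genes were selected for the table, the annotation and tool versions were not given in the sources used here. The listed genes nearly all differ between the lines, so counts of calls hold only within this list. Symbols were matched by identifier for 6636 of 6641 genes, and positions from GENCODE 29 for 6353.

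The 5276 genes that reached 1 FPKM in 3 or more libraries were tested on log2(FPKM + 1) with limma 3.58.1 in R 4.3.3 (mean-variance trend, cell line as the only term). P-values were adjusted by Benjamini-Hochberg over all tested genes, and calls needed an adjusted p below 0.05 with a log2 difference of 1 or more in size. An exact test of 3 against 3 libraries cannot go below p = 0.10. The steps were tested on simulated data. In the simulation for the limma fit most genes were unchanged, unlike here, where 5187 of the 5276 genes passed the adjusted p. CYP24A1 and the lists were chosen with earlier results of these data known. Named genes were every listed CYP gene, members of the vitamin D, redox partner and calcium lists (up to 6 per list with values), 5 listed neighbours on each side and the 8 genes nearest in profile; some genes that the rule names are left out, and further members were given with values after these had been seen. The alternatives were pseudocounts of 0.1 and 5, no minimum or 5 FPKM, median-ratio and sum rescaling, no trend, a replicate block, and leaving out each library.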

Additional observations from a re-analysis of the deposited data

How the results depend on the processing

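The log2 difference of CYP24A1 was 5.71 with a pseudocount of 0.1, 3.79 with 5, 4.80 with median-ratio rescaling and 5.29 with rescaling to equal library sums, and 5.06 to 5.15 with 1 library left out. The rescalings shifted the median gene by -0.30 and 0.21. Of all genes, 579 were called higher and 506 lower with a pseudocount of 5, 867 were called higher with a minimum of 5 FPKM, and 1657 lower with median-ratio rescaling. With a pseudocount of 0.1, 1705 of all genes were called higher and 1298 lower, and with sum rescaling 1825 higher and 794 lower. The counts of the lists below stand beside these. Of the other CYP genes, a pseudocount of 5 left 2 called higher and 2 lower, and a minimum of 5 FPKM left 2 called higher. Of the calcium genes, 2 were called higher with a pseudocount of 0.1 and 3 with sum rescaling; with a pseudocount of 5 and with a minimum of 5 FPKM, 0 were called higher and 1 lower. Of the redox partners 1 was called higher with sum rescaling. Of the neighbours, 5 were called higher with sum rescaling, and 1 lower with a pseudocount of 0.1 and with 10 genes on each side. Pearson's r shared 0 of the 8 genes nearest in profile. Of the 20 tested vitamin D genes, 11 were called higher and 4 lower as deposited. With 1 library left out, 11 to 12 were called higher and 4 lower, beside 1298 to 1334 and 1034 to 1056 of all genes. A pseudocount of 5 left 8 vitamin D genes called higher, and a minimum of 5 FPKM left 9. Median-ratio rescaling gave 9 called higher and 6 lower, beside 896 and 1657 of all genes. A pseudocount of 0.1 and sum rescaling each gave 12 called higher. With the replicate number as a block, 1304 genes were called higher and 1041 lower, the same numbers as without it; same-numbered libraries deviated with r of 0.106, -0.022 and 0.049, so the numbers were not taken as pairs. Of 57 named genes tested, 14 were not tested at a minimum of 5 FPKM, CYP26A1 among them, and 31 of the other 43 kept their side of the call under every alternative. None of the 57 changed sign where tested. A pseudocount of 5 ended the calls of CYP26B1, CYP3A5, CYP4B1, CYP2S1, CD14, THBD, CDKN1A, CALB2, CLDN16 and NKILA. The cause of these shifts was not tested. Without counts, the error of values near 0 cannot be given.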

Other observations

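Besides the coding genes, 4 rows with CYP symbols were listed. CYP1B1-AS1, annotated beside CYP1B1, stood at 126 ± 1.78 FPKM in HCC827_Er and 436 ± 20.6 FPKM in HCC827 and was called lower (limma adjusted p = 8.15e-09), while CYP1B1 itself stood at 8.86 FPKM in HCC827_Er and 4.58 FPKM in HCC827. The antisense row thus lay above the coding gene in both lines and differed the other way, and where the loci overlap their reads cannot be told apart without strand. The pseudogene CYP2B7P stood at 19.2 ± 2.73 FPKM in HCC827_Er and 0.0300 ± 0.0520 FPKM in HCC827, above its coding relative CYP2B6, at 0.62, 0.17 and 0.59 FPKM in HCC827_Er and listed at 0 in HCC827. The pseudogene CYP4F26P stood at 3.23 ± 0.934 FPKM in HCC827_Er and 1.02 ± 0.393 FPKM in HCC827, and CYP4F35P was too low to be tested.

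Over the whole of chromosome 20, 110 listed genes other than CYP24A1 were tested, and 36 were called higher in HCC827_Er and 13 lower, which is 32.7% and 11.8%, beside 24.7% and 19.7% of all tested genes. Their median log2 difference was 0.76, and that of all tested genes was 0.43. This set was looked at after the data had been seen.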
